A study of Homo sapiens with 9 samples.

Results

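The genes described here carry the Activin and Nodal signal from the cell surface to the nucleus and damp it there: 4 receptor genes (ACVR1B, ACVR1C, ACVR2A and ACVR2B), 3 SMAD genes (SMAD2, SMAD3 and SMAD4), and 3 genes of inhibitors (SKI, SKIL and PMEPA1). Every probe set whose deposited gene symbol was one of these 10 names was taken. This gave 11 of the 29096 probe sets that were not controls or unannotated (10 of 20183 genes). SMAD2 had 2 and each other gene 1. All 11 lay above the 25th percentile of their own array on 9 of 9 arrays and were tested. They were measured in H9, an established human embryonic stem cell line, after siRNA knockdown of TCF7L1, a DNA-binding partner of beta-catenin that mostly represses, as far as it is known, the genes that Wnt signalling switches on. The study's stated purpose was to find putative target genes of TCF7L1.

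Activin and Nodal are secreted ligands of the TGF-beta family. They bind a type II receptor, which phosphorylates a type I receptor, and the type I receptor phosphorylates SMAD2 and SMAD3. These enter the nucleus with SMAD4 and act on target genes with partners such as FOXH1, while SKI, SKIL and PMEPA1 restrain them. In human embryonic stem cells this signal is known to help keep the cells pluripotent, and at higher strength to drive them towards endoderm.

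The 9 samples formed 3 groups of 3, all H9 cells named day 3 in the labels. One group had received no siRNA and is called untreated in the labels, one a non-silencing siRNA, and one an siRNA against TCF7L1. The labels give no sequence, dose or delivery for the siRNAs, so it is not known whether 1 siRNA or a pool was used. Whether the replicates were separate cultures is not stated in the labels, so p-values measure only the spread between these samples, which may be technical.

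Each value is a PLIER signal, a brightness on a linear scale that the submitters computed from all probes of a probe set. Each array's median signal was within 104 to 113. TCF7L1 itself had signals of 1473, 1842 and 1667 without siRNA, 1709, 1703 and 1625 in the non-silencing group, and 389, 346 and 352 in the TCF7L1 siRNA group, which followed the labels. Against the non-silencing siRNA the TCF7L1 signal fell by 2.17 on the log2 scale (SE 0.10, limma adjusted p = 7.26e-06). All 10 embryonic stem cell markers were above the 25th percentile on every array, and their summed signal ran from 30166 to 32264 with the TCF7L1 siRNA and from 30259 to 32040 on the control arrays. POU5F1 had 3 probe sets and NANOG and LIN28A 2 each, and only the one of highest mean signal was read for each. The summed signal of 8 fibroblast markers was 913 to 1018 with the TCF7L1 siRNA and 1092 to 1179 on the control arrays; 4 of the 8 (COL1A1, COL1A2, COL3A1 and PDGFRB) were above the 25th percentile on every array, LUM on 1, POSTN on 4, and DCN and FAP on none. Mean COL1A1 signal was 307 ± 21.6 with the TCF7L1 siRNA and 427 ± 19.9 in the non-silencing group (SD, n = 3). In the same order mean COL1A2 signal was 343 and 407. COL3A1 (83.9 and 79.9) and PDGFRB (138 and 137) were not lower than in the non-silencing group. Of the dimmer markers, LUM (26.9 and 24.6) and POSTN (28.9 and 26.9) were higher, and DCN (11.9 and 12.3) and FAP (13.8 and 14.9) lower. The arrays differed in the spread of their signals, measured as the interquartile range of log2 signals over all probe sets. It was 3.70, 3.85 and 3.77 without siRNA, 3.88, 3.60 and 3.44 in the non-silencing group, and 3.80, 3.44 and 3.62 in the TCF7L1 siRNA group.

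No receptor, SMAD or inhibitor gene among these passed the threshold, an adjusted p under 0.05, in any of the 3 comparisons. All 11 probe sets had an adjusted p of 0.99998 for TCF7L1 siRNA against non-silencing siRNA in limma's test, and 0.0263% of all 22784 tested probe sets passed there. The intervals leave room for small differences: all 11 of the 95% intervals lay within 1.5-fold in either direction, as did 94.6% of all tested probe sets. The members' median difference was 0.02 on the log2 scale, beside -0.01 for all tested probe sets, and 8 of 11 differences were above 0, beside 47.8% of all. Differences and their SEs are in log2(signal + 16), which understates the change of dim genes, and folds are on that scale. In bulk RNA of this kind, fewer cells with a transcript and less of it per cell cannot be told apart.

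**Figure D1:**
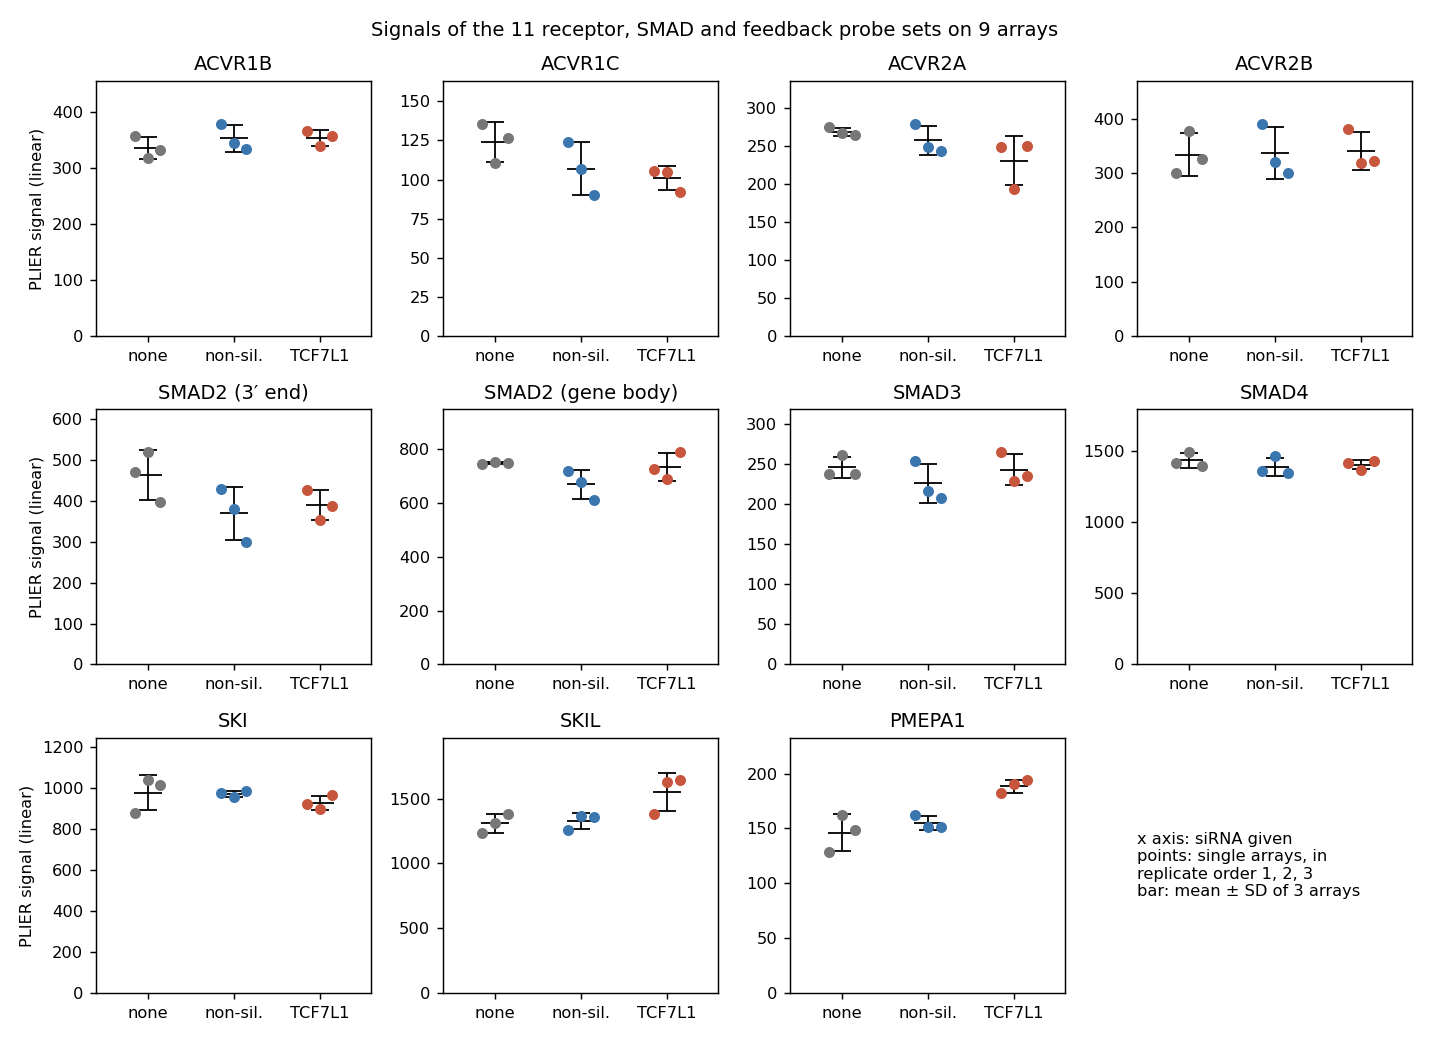
Signals of the 11 probe sets (y axes, PLIER signal, linear, from 0) on the 9 arrays, by the siRNA given (x axes). Points are single arrays, and bars are the mean and SD of 3 arrays. The 3 PMEPA1 points with the TCF7L1 siRNA lie at 182 to 194, above all 6 control points, while most other members' groups overlap.

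The type I receptors are the kinases that phosphorylate SMAD2 and SMAD3. ACVR1B, also called ALK4 and the main type I receptor for Activin and Nodal, was read by 36 probes over chr12:52207828-52390860 (plus strand, build 37). Its signals were 357, 319 and 333 without siRNA, 379, 345 and 333 in the non-silencing group, and 366, 339 and 357 in the TCF7L1 siRNA group. The 3 groups overlapped, and the TCF7L1 siRNA group was 0.01 above the non-silencing group on the log2 scale (SE 0.09, 95% interval -0.19 to 0.21). This was the smallest difference among the 11 probe sets.

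ACVR1C, also called ALK7 and a type I receptor for Nodal and some other ligands, was read by 30 probes over chr2:158388886-158485399 (minus strand). Its signals were 136, 111 and 126 without siRNA, 124, 107 and 90.3 in the non-silencing group, and 106, 105 and 91.9 in the TCF7L1 siRNA group. Both siRNA groups had lower means than the cells without siRNA, and the siRNA groups overlapped each other. The TCF7L1 siRNA group differed from the non-silencing group by -0.07 (SE 0.12, interval -0.33 to 0.19). It lay below the cells without siRNA on every array, with a difference of -0.26 (SE 0.12, interval -0.53 to -7.5e-05) that did not pass (limma adjusted p = 0.662). The non-silencing group differed from the cells without siRNA by -0.19 (SE 0.12, interval -0.46 to 0.07).

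The type II receptors bind the ligand first and activate the type I receptor. ACVR2A (chr2:148602185-148688393, plus strand, 35 probes) had signals of 275, 267 and 265 without siRNA, 280, 249.7 and 244 in the non-silencing group, and 249, 194 and 251 in the TCF7L1 siRNA group. The second array of the TCF7L1 siRNA group was lower than the other 8, and the siRNA groups overlapped. The difference between the siRNA groups was -0.15 (SE 0.11, interval -0.40 to 0.09), and it was -0.04 without that array. Against the cells without siRNA the 3 TCF7L1 siRNA arrays were all lower, by -0.21 on average (SE 0.11, interval -0.46 to 0.03, limma adjusted p = 0.662), and by -0.10 without the same array.

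ACVR2B (chr3:38495790-38534633, plus strand, 26 probes) had signals of 299.8, 377 and 326 without siRNA, 392, 321 and 299.6 in the non-silencing group, and 382, 319 and 323 in the TCF7L1 siRNA group. Each group held 1 array at 377 or above and 2 lower ones, and the spread within groups was larger than any difference between them. The difference between the siRNA groups was 0.02 (SE 0.13, interval -0.26 to 0.30).

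SMAD2 and SMAD3 are the receptor-regulated SMADs of this branch. SMAD2 was read by 2 probe sets on the minus strand of chromosome 18. One, of 36 probes, covered the gene body (chr18:45364437-45457223), and the other, of 20 probes, covered 814 bases at the 3′ end (chr18:45359729-45360542). They share the arrays, and over the 9 arrays their log2 signals had a Pearson correlation of 0.722, or 0.650 after group means were removed, given as a description.

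The gene body probe set of SMAD2 had signals of 746, 751 and 749 without siRNA, 719, 678 and 613 in the non-silencing group, and 725, 687 and 789 in the TCF7L1 siRNA group. Its values without siRNA lay close together and above all 3 non-silencing arrays, while the TCF7L1 siRNA arrays spread across both. The non-silencing group differed from the cells without siRNA by -0.16 (SE 0.09, interval -0.37 to 0.05), and the TCF7L1 siRNA group differed from the non-silencing group by 0.13 (SE 0.09, interval -0.08 to 0.34).

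The 3′ probe set of SMAD2 had signals of 471, 519.7 and 397 without siRNA, 429, 380.4 and 299.9 in the non-silencing group, and 427, 353 and 387 in the TCF7L1 siRNA group. The mean was highest without siRNA, and all groups overlapped. The TCF7L1 siRNA group was 0.08 above the non-silencing group (SE 0.14, interval -0.23 to 0.40). The non-silencing group differed from the cells without siRNA by -0.32 (SE 0.14, interval -0.63 to -0.004), which was the one interval of the 33 that reached beyond 1.5-fold, and it did not pass (limma adjusted p = 0.927). With the array spread in the model as a covariate that difference was -0.19 (SE 0.10).

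SMAD3 (chr15:67358195-67487533, plus strand, 37 probes) had signals of 238, 261 and 238 without siRNA, 254, 216 and 207 in the non-silencing group, and 265, 228 and 235 in the TCF7L1 siRNA group. Within each siRNA group the first array was the highest, and the groups overlapped. The difference between the siRNA groups was 0.10 (SE 0.10, interval -0.13 to 0.33).

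SMAD4, the SMAD that joins SMAD2 and SMAD3 and also serves BMP signalling, lies on the same chromosome as SMAD2 (chr18:48556613-48606147, plus strand, 34 probes). Its signals were 1415, 1490.5 and 1390.5 without siRNA, 1359, 1459 and 1343 in the non-silencing group, and 1411, 1365 and 1428 in the TCF7L1 siRNA group. All groups overlapped. The difference between the siRNA groups was 0.02, with the smallest SE of the 11 probe sets (0.08, interval -0.17 to 0.20).

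SKI and SKIL (also called SnoN) are related nuclear co-repressors that bind SMAD complexes and hold down transcription of their targets. SKI (chr1:2160134-2241558, plus strand, 44 probes) had signals of 878, 1037 and 1016 without siRNA, 974, 956 and 984 in the non-silencing group, and 921, 899 and 964 in the TCF7L1 siRNA group. The groups overlapped, and the TCF7L1 siRNA group differed from the non-silencing group by -0.07 (SE 0.09, interval -0.27 to 0.14).

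SKIL, whose gene is itself a known target of TGF-beta and Activin signalling and so forms a negative feedback loop, lies at chr3:170075513-170110536 (plus strand, 33 probes). Its signals were 1232, 1312 and 1380.3 without siRNA, 1256, 1369 and 1355 in the non-silencing group, and 1377, 1629 and 1639.8 in the TCF7L1 siRNA group. All 3 TCF7L1 siRNA arrays were above all 3 non-silencing arrays, but the lowest of them lay just under the highest array without siRNA. The TCF7L1 siRNA group was 0.22 above the non-silencing group (SE 0.10, interval -0.002 to 0.44), or 1.16-fold, with an unadjusted limma p of 0.0514 and an adjusted p of 0.99998. Against the cells without siRNA the difference was 0.24 (SE 0.10, interval 0.02 to 0.46, limma adjusted p = 0.662), and between the control groups it was 0.02 (SE 0.10).

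PMEPA1 encodes a membrane protein that is induced by TGF-beta signalling and that keeps SMAD2 and SMAD3 away from the receptor, again as negative feedback (chr20:56223452-56286541, minus strand, 41 probes). Its signals were 128, 162 and 148 without siRNA, 162, 151 and 151 in the non-silencing group, and 182, 189.99 and 194 in the TCF7L1 siRNA group. The 3 TCF7L1 siRNA arrays were above all 6 control arrays. Against the non-silencing siRNA the difference was 0.26 (SE 0.10, interval 0.05 to 0.47), or 19.7% higher with a fold interval of 1.03 to 1.39, with an unadjusted limma p of 0.0220 and an adjusted p of 0.99998. Against the cells without siRNA it was 0.34 (SE 0.10, interval 0.13 to 0.55), or 1.27-fold, with a limma adjusted p of 0.556, and between the control groups it was 0.08 (SE 0.10, interval -0.13 to 0.29). The fibroblast marker sum was lower on the same 3 arrays, mainly through COL1A1 and COL1A2, and its part in this difference was not tested.

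The feedback genes SKIL and PMEPA1 were thus the 2 of 11 probe sets whose TCF7L1 siRNA arrays all lay above the non-silencing arrays, beside 1.88% of all tested probe sets; none of the 11 lay wholly below, beside 3.12%. PMEPA1 was the one member above all 6 control arrays, beside 0.812% of all tested probe sets, and no member was below all 6, beside 1.37%. At an unadjusted p under 0.05 there was 1 member, PMEPA1, beside 2.58% of all. With 3 arrays against 3 an exact permutation test cannot give a two-sided p below 0.1, so single probe sets that do not overlap cannot reach 0.05 by that test.

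In the comparison of the non-silencing siRNA with no siRNA, 0% of all tested probe sets passed the threshold by limma, and no member did. The SMAD2 gene body probe set was the one member wholly lower, beside 4.39% of all, and no member was wholly higher, beside 2.47%. Of the 11 intervals, 10 lay within 1.5-fold, beside 88.8% of all. At an unadjusted p under 0.05 there was 1 member, the 3′ probe set of SMAD2, beside 2.41% of all. For the TCF7L1 siRNA against no siRNA, 0.0527% of all probe sets passed and no member did. There PMEPA1 was wholly higher, beside 6.43% of all, and ACVR1C and ACVR2A were wholly lower, beside 7.93%. All 11 intervals lay within 1.5-fold, beside 85.3% of all, and 3 members (ACVR1C, SKIL and PMEPA1) had an unadjusted p under 0.05, beside 7.26%. The 3 comparisons share arrays in pairs, so they are not independent of each other.

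**Figure D2:**
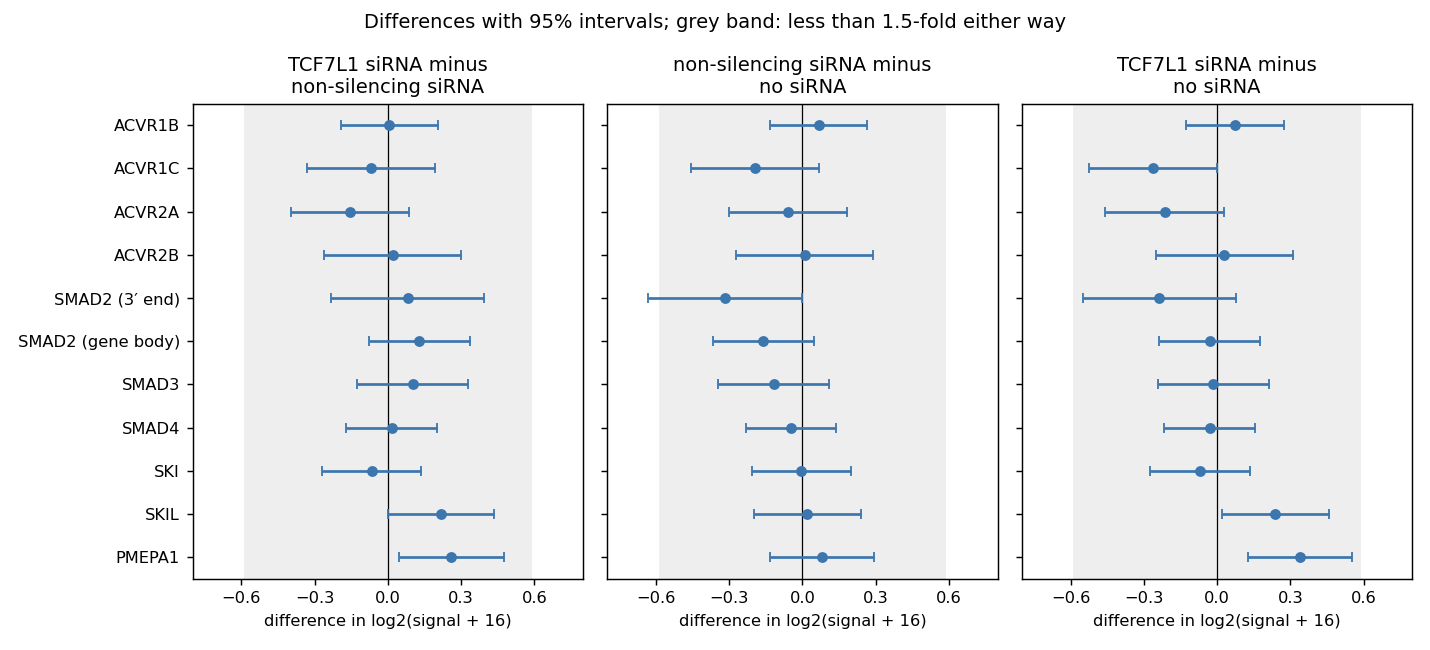
Difference of each member (rows) in log2(signal + 16) (x axes) in the 3 comparisons, with 95% intervals from limma. The grey band marks less than 1.5-fold either way: all 11 intervals lie inside it in both comparisons of the TCF7L1 siRNA and 10 in that of the controls, where the 3′ probe set of SMAD2 reaches -0.63.

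SKIL and PMEPA1 are both known SMAD targets, so the sequence just before their outermost annotated start was read for SMAD, FOXH1 and TCF/LEF motifs. The windows are the 250 bases before that start from RefSeq's promoter table (GRCh38.p14), which held 9 of the 10 members and had no entry for SKI. SKIL is at chr3:170357465-170357714 (plus strand) and PMEPA1 at chr20:57711473-57711722 (minus strand), each printed 5′ to 3′ on the gene's strand, with the SMAD box in capitals.
SKIL: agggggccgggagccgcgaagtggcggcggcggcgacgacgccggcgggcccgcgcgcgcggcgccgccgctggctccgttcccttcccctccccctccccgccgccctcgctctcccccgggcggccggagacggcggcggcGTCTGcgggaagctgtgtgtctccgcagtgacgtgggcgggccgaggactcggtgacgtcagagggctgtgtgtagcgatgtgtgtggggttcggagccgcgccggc
PMEPA1: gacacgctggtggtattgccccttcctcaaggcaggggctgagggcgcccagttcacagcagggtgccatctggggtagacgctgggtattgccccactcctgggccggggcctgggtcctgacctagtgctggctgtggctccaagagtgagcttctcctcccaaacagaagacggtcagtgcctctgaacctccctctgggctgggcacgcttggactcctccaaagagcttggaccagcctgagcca
The motifs searched on both strands were CAGAC (the SMAD box), GTCTAGAC (a SMAD palindrome, which contains CAGAC on neither strand), AATNNACA (FOXH1) and CTTTGA (a TCF/LEF core). Over 35116 promoter windows of this length they were found in 38.0%, 0.182%, 9.88% and 11.2%. Of the 9 members with a window, SKIL alone held a match, 1 SMAD box that reads GTCTG on the printed strand and begins at base -107 from the start. PMEPA1 held none of the 4, which says only that these letters are not in this window. The SKIL window was 78.4% G and C and the PMEPA1 window 63.2%, and the members ran from 40.8% to 82.8%. The median of all windows was 58.0%, and of the members' windows only that of ACVR2A (40.8%) was below it.

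Around these genes, the other listed genes of the pathway were read from the same fit: 58 genes, of which 57 were tested and MSTN was too dim. NANOG had 2 probe sets, and only the one of higher mean signal was read. Against the non-silencing siRNA 2 of 57 rose (NODAL and FST), 0 fell and 55 did not pass; the median difference was 0.02. Against no siRNA 3 rose (NODAL, FST and LEFTY2), 0 fell and 54 did not pass, and between the controls 0 of 57 passed by limma. The list was chosen with earlier results of these data known, so its counts are a description.

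NODAL, the ligand, had signals of 36.9, 37.6 and 31.0 without siRNA, 35.6, 35.1 and 29.2 in the non-silencing group, and 95.4, 95.7 and 95.3 in the TCF7L1 siRNA group. The TCF7L1 siRNA arrays stood apart from all 6 controls. On the control arrays NODAL was near the 25th percentile of the array, which was 28.0 to 34.6 there. It was below it on non-silencing replicate 3, so the size of the rise depends on what is added before log2. NODAL rose by 1.18 against the non-silencing siRNA (SE 0.09, limma adjusted p = 0.00061), and by 1.498 when 1 was added before log2 in place of 16 and by 0.71 when 64 was added. FST encodes follistatin, which binds Activin and blocks it. Its signals were 142, 163 and 137 without siRNA, 131, 158 and 121 in the non-silencing group, and 306, 277 and 393 in the TCF7L1 siRNA group, a rise of 1.16 over the non-silencing siRNA (SE 0.14, limma adjusted p = 0.0219). The FST call was lost without any 1 of 6 arrays, replicates 1 and 3 of each group, with adjusted p from 0.0572 to 0.124 in limma and differences from 1.02 to 1.19. Against no siRNA FST rose by 1.05 (SE 0.14, limma adjusted p = 0.0303), a call lost without any 1 no siRNA array, non-silencing replicate 2, or TCF7L1 siRNA replicate 1 or 3, with limma adjusted p from 0.0533 to 0.226.

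LEFTY2, a secreted Nodal antagonist and Nodal target, had a mean signal of 167 ± 25.1 without siRNA, 254 ± 11.3 with the non-silencing siRNA and 305 ± 15.98 with the TCF7L1 siRNA (SD, n = 3). It rose by 0.82 against no siRNA (SE 0.11, limma adjusted p = 0.0303), while the control groups themselves differed by 0.57 (SE 0.11, adjusted p = 0.927). That call was lost without any 1 of 6 arrays, no siRNA replicates 1 and 3, non-silencing replicate 2 and each TCF7L1 siRNA replicate, with limma adjusted p from 0.0731 to 0.207. The related LEFTY1 had means of 186 ± 31.9, 214 ± 9.64 and 258 ± 9.89 in the same order and did not pass. Its difference between the siRNA groups was 0.25 (SE 0.12), and that of LEFTY2 was 0.25 (SE 0.11).

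None of the other receptors, partners and ligands named here passed the threshold between the siRNA groups. The differences were 0.04 (SE 0.16) for TDGF1, the Nodal co-receptor also called Cripto, 0.03 (SE 0.08) for TGFBR1 and -0.06 (SE 0.12) for TGFBR2, the TGF-beta receptors, and 0.06 (SE 0.11) for FOXH1. DAB2, an adaptor protein of the SMAD partner class, was named after its values were seen. It gave 0.30 (SE 0.13, interval 0.02 to 0.58, limma adjusted p = 0.99998), more than any member. Its groups overlapped, and it was 0.12 above no siRNA (SE 0.13). Against no siRNA 5 of the 57 pathway genes, TGFBR2 among them, lay wholly below, beside 7.93% of all tested probe sets. In that comparison 7 lay wholly above, beside 6.43%. TGFBR2 differed there by -0.36 (SE 0.12, interval -0.63 to -0.09, limma adjusted p = 0.632), and between the controls by -0.30 (SE 0.12). Of the 57 pathway genes 4 (NODAL, FST, LEFTY1 and LEFTY2) lay wholly above the non-silencing arrays, beside 1.88% of all tested probe sets. The 2 wholly below, beside 3.12%, were TGIF1 (-0.17, SE 0.09) and STUB1 (-0.13, SE 0.10), also named after their values were seen. The Activin subunit genes INHBA and INHBB gave -0.23 (SE 0.22) and 0.03 (SE 0.13). SMAD7, an inhibitory SMAD induced by the pathway, had signals of 98.7, 93.2 and 72.1 in the non-silencing group and 136, 87.5 and 123 in the TCF7L1 siRNA group; the groups overlapped and the difference was 0.33 (SE 0.15, limma adjusted p = 0.99998). By class, the median difference was 0.23 for 6 secreted antagonists, 0.09 for 7 SMAD partners and anchors, 0.06 for 10 target genes, 0.02 for 11 ligands, 0.02 for 8 co-receptors and other receptors, and -0.01 for 15 inhibitors and ubiquitin ligases.

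**Figure D3:**
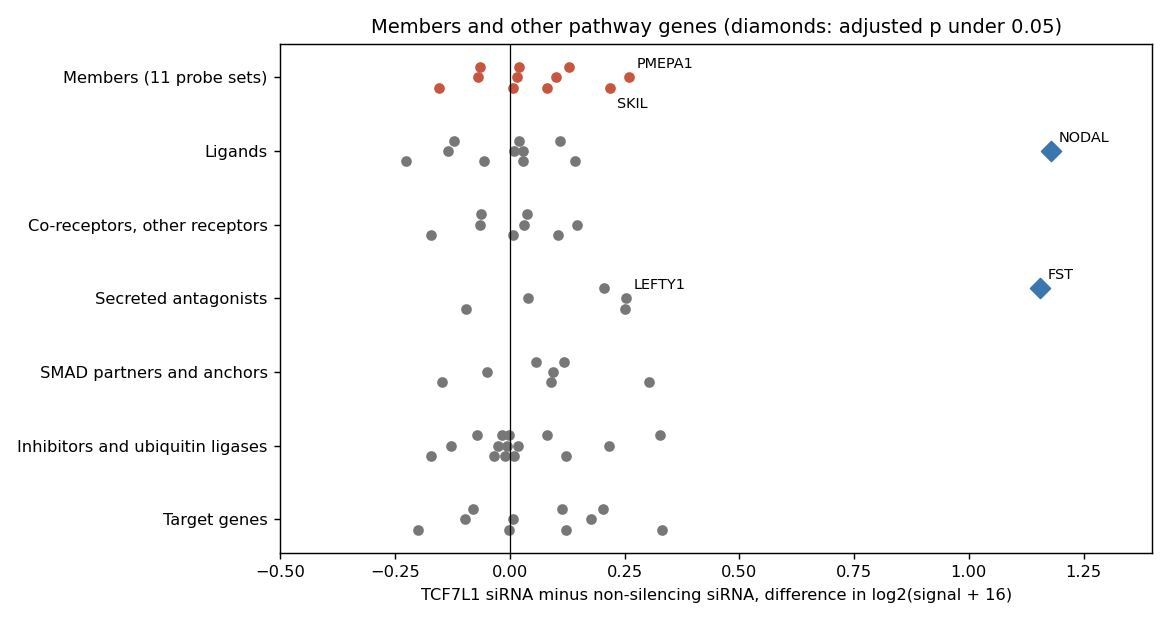
Difference between TCF7L1 siRNA and non-silencing siRNA in log2(signal + 16) (x axis) for the 11 member probe sets (red) and 57 other pathway genes by class (rows). Diamonds mark an adjusted p under 0.05: NODAL at 1.18 and FST at 1.16 stand apart, while the members run from -0.15 to 0.26.

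Some members' signals went with the spread of signals on each array, as those of many other genes did: 4 of 11 member probe sets had a Pearson r of at least 0.750 in size, beside 39.8% of all tested probe sets, so this is not particular to them. Over the 9 arrays, with 11 relations computed, log2 signals of SMAD3 rose with the interquartile range with a Pearson r of 0.853 (exact permutation p = 0.00434, adjusted 0.0225) and a Spearman rho of 0.90 (exact permutation p = 0.00203, adjusted 0.0165). For the 3′ probe set of SMAD2 r was 0.823 (exact permutation p = 0.00519, adjusted 0.0225) and rho 0.867 (exact permutation p = 0.00451, adjusted 0.0165). The permutations shuffled all 9 arrays without regard to group, so their p-values do not measure a relation within groups. ACVR2A and ACVR2B were each past the threshold by 1 of the measures. ACVR2A had r = 0.750 (exact permutation p = 0.00613, adjusted 0.0225) and rho = 0.75 (exact permutation p = 0.0255, adjusted 0.0701), and ACVR2B had r = 0.778 (exact permutation p = 0.0190, adjusted 0.0523) and rho = 0.883 (exact permutation p = 0.00308, adjusted 0.0165).

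Without the 2 arrays farthest from the median spread, r was 0.843 for SMAD3, 0.801 for ACVR2B, 0.602 for ACVR2A and 0.595 for the 3′ probe set of SMAD2. For the feedback genes r was -0.567 for SKIL (exact permutation p = 0.114, adjusted 0.179; rho -0.383, exact permutation p = 0.313, adjusted 0.491) and -0.148 for PMEPA1 (exact permutation p = 0.697, adjusted 0.697; rho 0.03, exact permutation p = 0.948, adjusted 0.948). With the spread as a covariate, the difference between the siRNA groups was 0.26 (SE 0.08) for PMEPA1 and 0.21 for SKIL, beside 0.26 and 0.22 without it. With group means removed from both measures, which leaves the relation within groups, r was 0.954 for SMAD3, 0.907 for ACVR2B, 0.814 for the 3′ probe set of SMAD2, 0.764 for ACVR2A, -0.61 for SKIL and 0.35 for PMEPA1, given as a description.

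**Figure D4:**
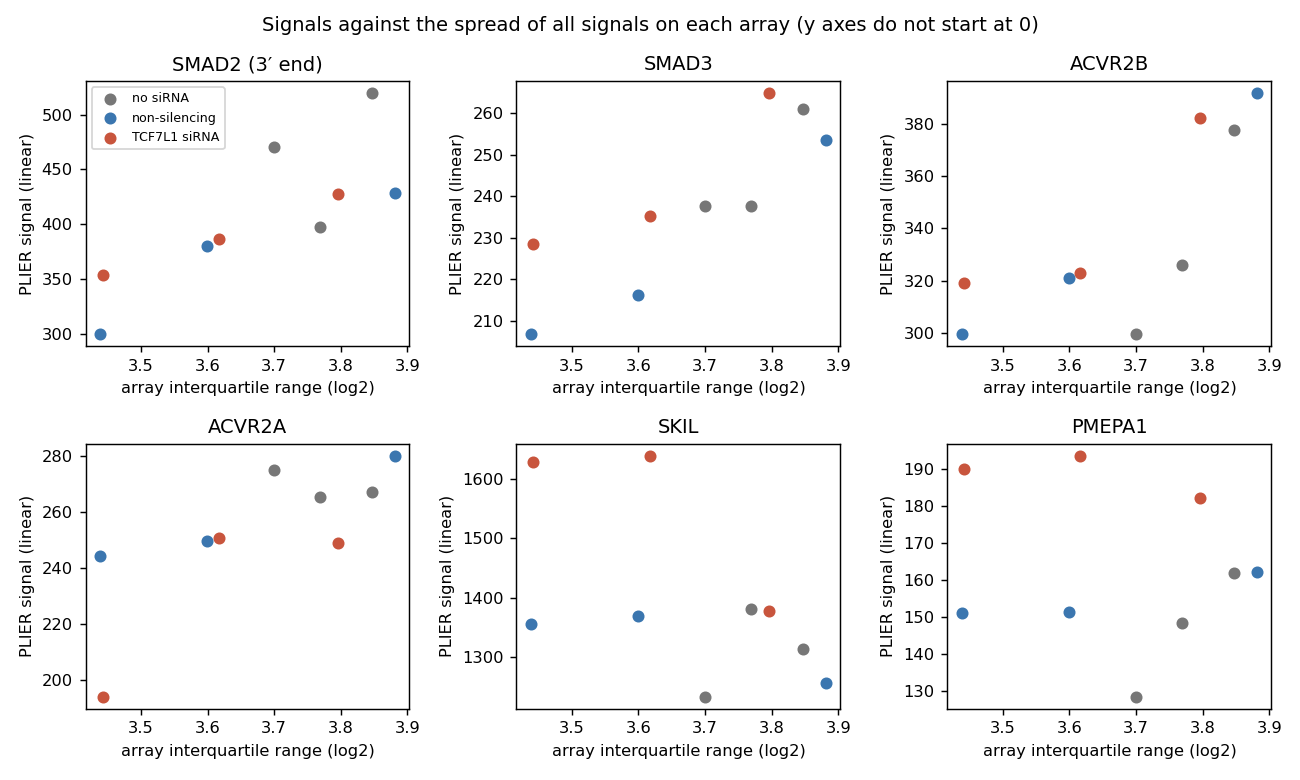
Signals of 6 members (y axes, PLIER signal, linear, not from 0) against the interquartile range of log2 signals of each array (x axes), coloured by group. SMAD2 (3′ end), SMAD3, ACVR2B and ACVR2A are higher on arrays of wider spread, while the 3 PMEPA1 points with the TCF7L1 siRNA lie above the others at every spread.

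The probe sets whose log2 signal was most like each inhibitor gene over the 9 arrays were looked up as a description, by Pearson r. They were picked as the highest of all tested probe sets with 1 symbol. High values over 9 arrays thus follow in part from the picking, also after group means are removed. For PMEPA1 they were TMEM63A (0.972), GPR50 (0.957) and PBX3 (0.954), and with group means removed r was 0.884, 0.825 and 0.818. For SKIL they were C1orf187 (0.970), FOXO4 (0.941) and FOXB1 (0.938), with 0.921, 0.868 and 0.844 after group means were removed. For SKI they were YPEL3 (0.953), MFSD9 (0.945) and GAMT (0.932), with 0.951, 0.952 and 0.917. None of these 9 genes passed the threshold between the siRNA groups.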

How the data were processed

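Total RNA of 9 H9 samples was hybridized to 1 Affymetrix whole-transcript array each. The submitters deposited linear intensity values, 1 per probe set and array, from PLIER 2.0 run in Affymetrix Expression Console 1.1.1, per the submitters' processing notes. The background and normalization settings of that step are not given in the sources used. The results table and the value table held the same signals (largest difference 0). Of 5957 probe sets whose annotation text gives a position on build 37, 97.4% overlapped it, so positions are given on that build.

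Of 33297 probe sets, 4201 with no chromosome and no transcript in the deposited annotation, controls or unannotated, were left out. Signals were turned into log2(signal + 16), and a probe set was tested when it exceeded the 25th percentile of its array on at least 3 arrays (22784 of 29096). A model of 1 mean per group over all 9 arrays was fitted with limma 3.58.1 (R 4.3.3), two-sided, with 6 residual degrees of freedom and Benjamini-Hochberg adjustment over all tested probe sets of a comparison; the threshold was 0.05. The number of arrays limits the precision, with a median SE of 0.12 per difference. The script was tested on simulated data.

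The members, the pathway list, the marker lists and the tests were chosen with earlier results of these data known. Named were all members, the listed pathway genes that passed or were set by name, and, after their values were seen, DAB2, TGIF1 and STUB1. For SKI, SKIL and PMEPA1 the 3 probe sets with 1 symbol of highest correlation were named. Alternatives were the offset, filter, normalization, array spread, variance model, arrays in the fit, replicate number, value table and leaving out each array.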

Additional observations from a re-analysis of the deposited data

How the results depend on the processing

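The 33 differences of the 11 member probe sets were recomputed under 21 alternatives, 693 values in all. No value passed the threshold under any of them, and the lowest limma adjusted p was 0.266 (PMEPA1 against no siRNA, without the first TCF7L1 siRNA array). There were 6 values that moved by more than 1 SE, some of them for ACVR2A (-0.21) and the 3′ probe set of SMAD2 (-0.24) against no siRNA. The other sign was taken by 41 values, all of differences no larger than 0.08 in size. Over the alternatives the difference between the siRNA groups ran from 0.21 to 0.29 for PMEPA1 and from 0.17 to 0.30 for SKIL. The intervals within 1.5-fold numbered 11 of 11 between the siRNA groups under every alternative, 10 to 11 between the controls, and 8 to 11 for TCF7L1 siRNA against no siRNA, with 8 when 1 was added before log2 and without the first TCF7L1 siRNA array. The count of all probe sets past the threshold moved more. It was 6 between the siRNA groups and 12 against no siRNA, and 25 and 23 with the array spread as a covariate, 4 and 5 without the 2 arrays of narrowest spread, 9 and 19 with a trended and robust variance, and 4 and 13 with an offset of 1. It ran from 4 to 6 and from 3 to 14 when 1 array was left out, and was 4 between the siRNA groups from their 6 arrays alone. Between the controls it was 0 in limma under each alternative, with 548 probe sets at an unadjusted p under 0.05 from all 9 arrays; that number was 3438, 177 and 199 without non-silencing replicate 1, 2 or 3, and 316 to 1221 under the other alternatives. With the replicate number as a block no member passed (0 of 11 in each comparison), and 11, 0 and 20 probe sets did; deviations of same-numbered arrays correlated from -0.257 to 0.680, so the numbers were not taken as pairing the samples. NODAL passed under all 19 alternatives that tested it, and was not tested with the filter at the array median. FST passed under 11 of 20 between the siRNA groups, and LEFTY2 under 11 of 20 against no siRNA. Arrays give no counts, so signal over background, not depth, limits them; all 11 member probe sets were above the 25th percentile on every array.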
